A study of Mus musculus with 4 samples.

Results

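The genes of antigen presentation by the major histocompatibility complex (MHC) were followed through 4 RNA sequencing libraries of sorted sensory ganglion cells. They were 10 genes chosen by symbol out of the 41388 genes in the deposited tables. Their roles are those of class I heavy chains (H2-K1, H2-D1 and H2-T23), the class I light chain (B2m), peptide transport and loading (Tap1, Tap2 and Tapbp) and class II presentation (H2-Aa, H2-Ab1 and Cd74). All 10 symbols matched a single Ensembl gene. The choice used no measured value.

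Each library came from EGFP-positive cells that were sorted by flow cytometry from dorsal root ganglia of spinal levels T11 to S1 of 1 C57BL/6 animal. The genotype label reads Tg(Ret-EGFP)SJ/, whereas the design text describes heterozygotes with EGFP inserted at the Ret locus, and every library carries the reporter. EGFP therefore marks cells with Ret activity, which in this ganglion includes several classes of sensory neuron. All libraries are labelled P2, postnatal day 2. The pool labels differ: male B and male C were each described as 20 ganglia of a male embryo, male A as 20 ganglia of a male P2 mouse, and female A as 40 ganglia of a female P2 mouse. Male B and male C are called the embryo pair here, and male A and female A the P2 mouse pair. Where 4 values follow each other in library order, the order is male B, male C, male A, female A. The sources used here do not say what the difference in labels stands for. Sex and pool label overlap, since the embryo pair holds males only. The libraries held between 17388493 and 28066448 gene counts. The low-input cDNA amplification used no molecular identifiers, so counting intervals cover counting error only. Nothing states that the animals of a pair came from separate litters, so the p-values measure the spread between these samples.

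In a class I molecule a polymorphic heavy chain is held with beta-2 microglobulin, the product of B2m, and presents a peptide at the surface of most nucleated cells. Proteasomes cut the peptides, the TAP1-TAP2 transporter carries them into the endoplasmic reticulum, and tapasin, the product of Tapbp, with the chaperones calreticulin, calnexin and ERp57, helps load them. Class II molecules, with their invariant chain Cd74, present peptides from the endosome and are mainly made by dendritic cells, macrophages and B cells. In neurons class I levels are low and inducible by interferon, and class I proteins are also known for roles in synapse and axon development.

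The proximal upstream sequences of the 2 classical heavy chain genes and of B2m are shown because this region holds the regulatory modules of class I genes and because the 3 genes differed in how they varied between the libraries. They are the 250 bases before the annotated start site in RefSeq (GRCm38.p6), 5′ to 3′ on the gene's strand, and capitals mark matches to any of 4 motifs searched on both strands. For H2-D1 the Ensembl start given below lies further upstream, so this window falls inside the Ensembl span of the gene.
H2-K1, chr17:34000348-34000597, minus strand: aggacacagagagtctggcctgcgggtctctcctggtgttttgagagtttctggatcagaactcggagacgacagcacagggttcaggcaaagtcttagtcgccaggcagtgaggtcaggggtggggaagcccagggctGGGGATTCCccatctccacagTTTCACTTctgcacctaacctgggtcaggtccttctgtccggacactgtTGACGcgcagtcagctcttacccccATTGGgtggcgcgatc
H2-D1, chr17:35262844-35263093, plus strand: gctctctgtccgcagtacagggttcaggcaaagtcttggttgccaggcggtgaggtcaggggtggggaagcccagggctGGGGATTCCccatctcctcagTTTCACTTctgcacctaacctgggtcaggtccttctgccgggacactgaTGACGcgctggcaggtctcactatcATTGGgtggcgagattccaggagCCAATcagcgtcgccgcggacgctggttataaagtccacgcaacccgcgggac
B2m, chr2:122147437-122147686, plus strand: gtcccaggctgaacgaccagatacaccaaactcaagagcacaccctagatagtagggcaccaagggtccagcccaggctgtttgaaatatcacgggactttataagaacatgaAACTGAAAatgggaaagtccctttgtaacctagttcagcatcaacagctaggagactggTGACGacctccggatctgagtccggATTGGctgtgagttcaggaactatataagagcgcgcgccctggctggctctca
The motifs were TGACG, the core of cyclic AMP response elements, CCAAT, the NF-Y site, AANNGAAA, a core of interferon response elements, and GGGNNTTCC, a 9-letter form of the kappa B site. None of the matches in these windows overlapped another. Of 27018 promoters of the same length, 17.9% held TGACG, 34.5% CCAAT, 21.6% AANNGAAA and 4.88% GGGNNTTCC. H2-K1 and H2-D1 each held all 4 in the same order, with 21 bases from the start of the kappa B match to that of the interferon match, 49 from there to TGACG and 25 from there to CCAAT. H2-D1 had a further CCAAT match at -53 to -49 from its start site. The shared CCAAT match lay at -76 to -72 in H2-D1 and at -16 to -12 in H2-K1. The H2-K1 window thus ends before the place of the further match and could not show it. RefSeq gave 2 windows for H2-K1, of which 1 is shown. Aligned to each other, the windows of H2-K1 and H2-D1 were identical at 166 of 190 aligned bases (87.4%). B2m held the interferon core, TGACG and CCAAT, the last pair again 25 bases apart, and no match to GGGNNTTCC in this window. Kappa B sites of another length or spelling were not searched for, so this does not show that B2m lacks such a site. RefSeq windows for H2-T23, Tap1, Tapbp and H2-Aa were matched as well, and Tap2 and H2-Ab1 had none in the table. H2-T23 held CCAAT and the interferon core only, Tap1 held TGACG and CCAAT, Tapbp held CCAAT only, and H2-Aa held all 4. These matches are a description of letters in the window.

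The level of the genes spanned a wide range. In RPKM, the CPM per kilobase of exon, B2m stood at 193 ± 29.4 (SD over the 4 libraries, as are the other levels of this paragraph), above 99.31% of all genes. H2-D1 followed at 26.4 ± 15.3, Tapbp at 13.8 ± 1.78 and H2-K1 at 3.77 ± 0.517 RPKM. The other 6 genes lay far lower, with H2-Ab1 at 0.526 ± 0.0805, H2-T23 at 0.369 ± 0.163, Cd74 at 0.344 ± 0.238, Tap1 at 0.237 ± 0.0493, Tap2 at 0.161 ± 0.0540 and H2-Aa at 0.135 ± 0.122 RPKM. In that order H2-D1 and Tapbp overlapped in their ranges over the libraries, and so did each neighbouring pair from H2-Ab1 downwards. B2m did not overlap H2-D1, Tapbp did not overlap H2-K1, and H2-K1 did not overlap H2-Ab1. In CPM, counts per 1000000 gene counts of the library, which are not scaled to length, 4 genes had at least 7 CPM in every library and the other 6 stayed under 2 CPM in every library.

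**Figure D1:**
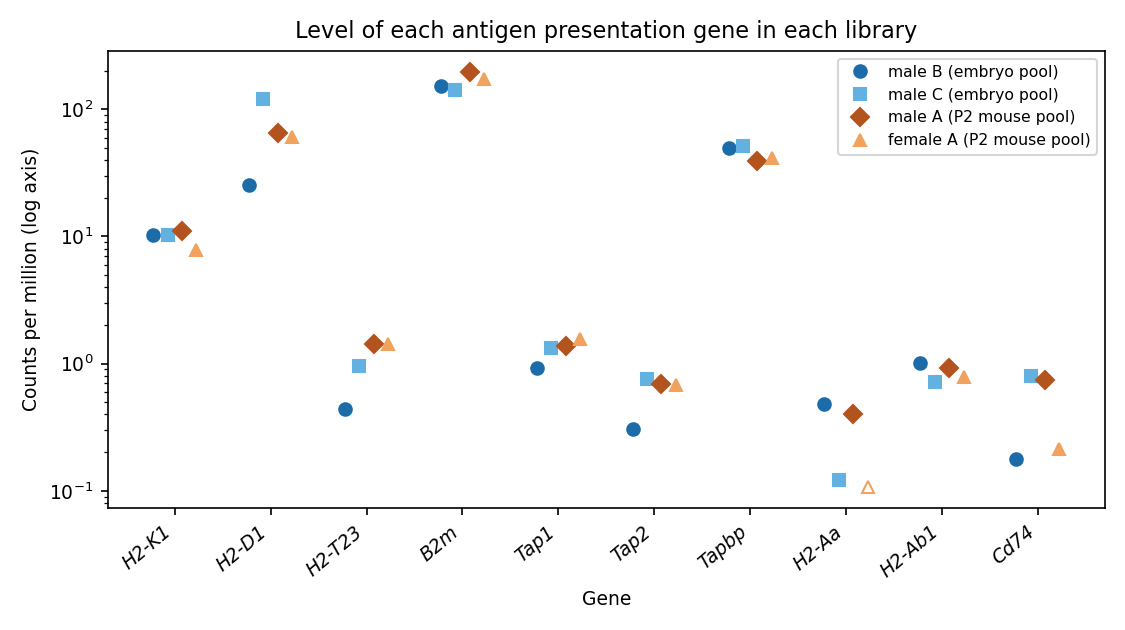
CPM (log axis) of each of the 10 genes in each library, blue for the embryo pair and brown to orange for the P2 mouse pair. H2-D1 spreads from 25.6 CPM in male B to 121 CPM in male C, while H2-K1, B2m and Tapbp vary by less than 1.5-fold. The open triangle marks H2-Aa in female A, which had no count and is drawn at the level of 3 counts.

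Among the heavy chains, H2-D1 varied most and H2-K1 hardly varied. H2-D1 (ENSMUSG00000073411, chromosome 17, 35262730 to 35267499, plus strand, GRCm38.p2), which encodes the classical class I chain at the D locus, had 25.6 CPM in male B (580 counts) against 121 in male C (3016 counts), with 64.9 in male A (1128 counts) and 61.1 in female A (1716 counts). The embryo pair thus held both the lowest and the highest library, and the P2 mouse pair lay between them. H2-K1 (ENSMUSG00000061232, chromosome 17, 33996017 to 34000333, minus strand), the classical chain at the K locus, had 10.2 CPM in both embryo libraries, 11.0 CPM in male A and 7.87 CPM in female A. Its 4 libraries overlapped between the pairs, with female A the lowest. The ratio of male C to male B was 4.73 for H2-D1 (95% exact counting interval 4.33 to 5.18) and 0.997 for H2-K1 (0.831 to 1.20). The ratio of female A to male A was 0.943 for H2-D1 (0.874 to 1.02) and 0.717 for H2-K1 (0.588 to 0.875). H2-T23 (ENSMUSG00000067212, chromosome 17, 36029773 to 36032855, minus strand) encodes the nonclassical chain Qa-1, a ligand of receptors on natural killer and T cells. In library order it had 10, 24, 25 and 40 counts, which is 0.441, 0.964, 1.44 and 1.43 CPM. The P2 mouse pair lay above the embryo pair without overlap, and the ratio of male C to male B was 2.19 (1.01 to 5.12).

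The mix of heavy chains differed accordingly. H2-D1 made up 70.9% of the summed RPKM of the 3 heavy chain genes in male B and 91.7% in male C, and 84.2% and 87.1% in the P2 mouse pair. The RPKM of H2-D1 was 2.53, 12.0, 5.97 and 7.85 times that of H2-K1 in library order. Heavy chain genes share sequence. Of the 50-base words in annotated transcripts, 12.8% for H2-D1, 9.63% for H2-K1 and 14.5% for H2-T23 also occurred in another gene, and 4.08% of the words of H2-K1 occurred in H2-D1. The sources used here do not say how reads with several matches were counted.

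B2m (ENSMUSG00000060802, chromosome 2, 122147686 to 122153083, plus strand) was abundant and steady. In library order it had 152, 141, 198 and 174 CPM, each from at least 3449 counts. The P2 mouse pair lay above the embryo pair without overlap, by less than 1.5-fold. None of its 50-base words occurred in another annotated gene. Its RPKM was 12.7 times the summed RPKM of the 3 heavy chain genes in male B, 3.20 times in male C, and 7.72 and 7.42 times in the P2 mouse pair. Male B, the lowest in H2-D1, had the highest of these ratios, and male C, the highest in H2-D1, the lowest. H2-D1 made up 70.9% of the heavy chain sum in male B and 91.7% in male C. This order therefore largely restates the difference in H2-D1. Over the 4 libraries, the 5 genes with a mean of at least 5 CPM whose pattern lay closest to B2m were Ergic2, Tada2a, Auts2, Pdcd10 and Sde2. Their root mean square difference from B2m was 0.0101, 0.0145, 0.0171, 0.0215 and 0.0253 in centred log2 (CPM + 0.1), against a median of 0.331 over all such genes.

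The transport and loading genes stood at unequal levels. Tapbp (ENSMUSG00000024308, chromosome 17, 33915899 to 33929288, plus strand), the gene of the loading chaperone tapasin, had 49.9 and 51.0 CPM in the embryo pair and 39.6 and 41.4 CPM in the P2 mouse pair. The embryo pair lay above the P2 mouse pair without overlap. The annotation places an antisense gene, Gm19412, across its exons, and 20.3% of the 50-base words of Tapbp occur there. The 2 cannot be told apart in these words if the counting ignored strand. Zbtb22, a protein-coding gene on the same strand, also overlaps Tapbp, and 1.36% of the words of Tapbp occur in it. Tap1 (ENSMUSG00000037321, chromosome 17, 34187553 to 34197225, plus strand), a subunit of the peptide transporter, had 21, 33, 24 and 44 counts in library order, or 0.926, 1.33, 1.38 and 1.57 CPM. Male A and female A lay just above male C and male B the lowest. Tap2 (ENSMUSG00000024339, chromosome 17, 34203527 to 34216321, plus strand), the other subunit, had 7, 19, 12 and 19 counts, or 0.309, 0.763, 0.690 and 0.677 CPM, and the pairs overlapped. Exons of Psmb9 overlap Tap1 and those of Gm15821 and Gm20496 overlap Tap2, in each case on the opposite strand. Per kilobase, Tapbp exceeded Tap1 by 89.6, 64.0, 47.6 and 43.8 times in library order. The loading chaperone gene was thus well covered by counts and the transporter genes were near the limit of counting.

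The 3 class II genes followed here had low counts, at most 23 in any library. H2-Eb1, another class II gene described below, had more. H2-Ab1 (ENSMUSG00000073421, chromosome 17, 34263209 to 34269418, plus strand), the class II beta chain, had 23, 18, 16 and 22 counts in library order. H2-Aa (ENSMUSG00000036594, chromosome 17, 34282744 to 34287827, minus strand), its alpha chain partner, had 11, 3, 7 and 0 counts. Cd74 (ENSMUSG00000024610, chromosome 18), the invariant chain, had 4, 20, 13 and 6 counts. The 3 genes together summed to 38, 41, 36 and 28 counts, or 1.00, 1.08, 1.31 and 0.631 RPKM. They did not move together: male C had the fewest counts of H2-Aa among the males and the most of Cd74. For Cd74 the ratio of male C to male B was 4.55, with a counting interval of 1.53 to 18.3, and that of female A to male A was 0.286 (0.0891 to 0.806). The count of 0 for H2-Aa in female A had a 95% counting upper limit of 0.131 CPM, and 3 counts there would be 0.107 CPM. The male mean of 0.336 CPM was 3.14-fold above that level of 3 counts, with no error of the male counts included. This mean rests on male B and male A, since male C had 0.120 CPM, close to the level of 3 counts.

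The labels imply a comparison of the pools, the P2 mouse pair against the embryo pair. Of the 9 genes that could be tested, Tapbp was lower in the P2 mouse pair and the other 8 were not called. The quasi-likelihood test of edgeR, adjusted by Benjamini-Hochberg over 15568 genes, gave Tapbp a log2 fold change of -0.43 (SE 0.118, adjusted p = 0.021). The same test called 22.3% of all genes higher and 20.0% lower, beside 0 of 9 higher and 1 of 9 lower here. So few genes cannot be set apart from these shares. At a mean of at least 5 CPM 0 of 4 were higher and 1 of 4 lower, beside 29.3% and 26.0% of all genes. The pairs did not overlap in CPM, which carry no TMM factor, for 4 of the 9 (H2-T23, B2m, Tap1 and Tapbp), against 73.3% of all genes tested. For Tap1 the gap lay within counting error. Male C had 1.33 CPM (counting interval 0.912 to 1.86) and male A 1.38 CPM (0.884 to 2.05). The median log2 fold change was -0.15 over the 9 genes and 0.02 over all genes, and the former turned to 0.03 with limma-voom, 0.19 with sex as a term and 0.43 with GC and length offsets. B2m stood at 0.23 (SE 0.106, adjusted p = 0.119) and H2-T23 at 0.90 (SE 0.542, adjusted p = 0.218). H2-D1 stood at -0.34 with an SE of 0.559 (adjusted p = 0.665), the widest error among the genes with at least 7 CPM. H2-K1 stood at -0.24 (SE 0.229), Tap1 at 0.27 (SE 0.448), Tap2 at 0.22 (SE 0.617), H2-Ab1 at -0.15 (SE 0.508) and Cd74 at -0.23 (SE 0.884), with adjusted p between 0.443 and 0.855. H2-Aa did not pass the filter on low counts.

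The call for Tapbp was lost with sex as a term (-0.46, SE 0.158, adjusted p = 0.098 by edgeR). It was also lost without male A (-0.41, SE 0.161) and without female A (-0.45, SE 0.166). Its fold change hardly moved in these fits while the SE rose, and fewer of all genes were called in them too. Female A is the only female, so the sex term leaves male A against the embryo pair. Here and below, that is the same contrast as without female A. With offsets for the GC content and length of transcripts the log2 fold change of Tapbp was 0.05 (adjusted p = 0.76 by edgeR), and that of B2m -0.09 (adjusted p = 0.464). H2-D1 turned with the embryo library that was kept. Without male B it was lower in the P2 mouse pair (-1.07, adjusted p = 3.51e-05), and without male C it was higher (1.14, adjusted p = 0.000121), where the lone embryo library is assumed to vary like the other pair.

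**Figure D2:**
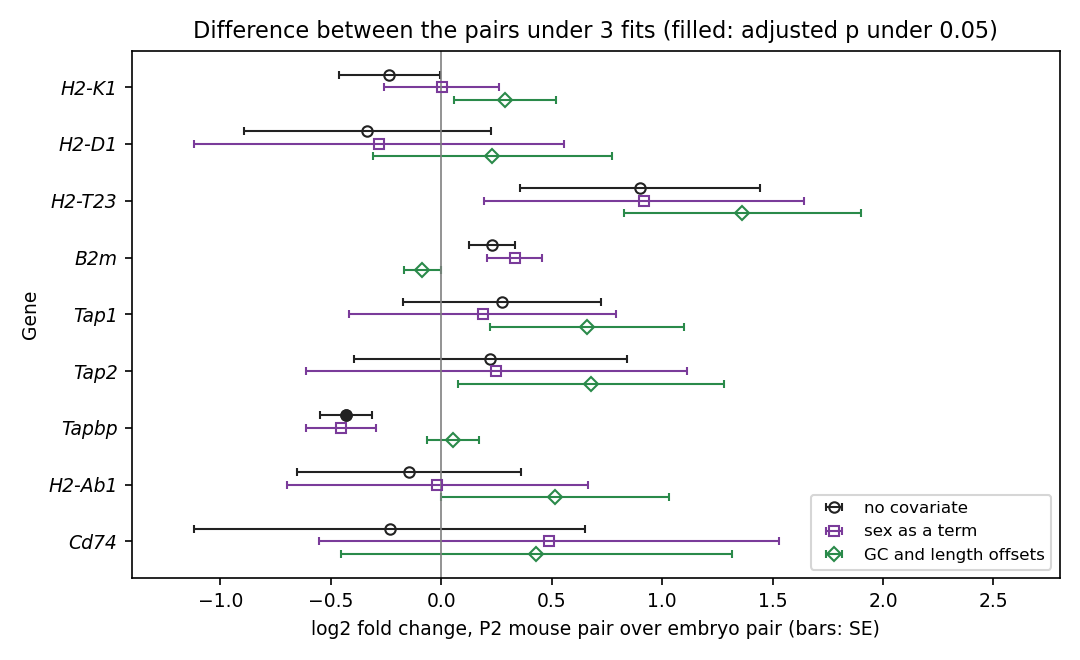
log2 fold change of the P2 mouse pair over the embryo pair for the 9 genes tested, with SE as bars, from edgeR without a covariate, with sex as a term and with offsets for GC content and length. Tapbp at -0.43 is the only filled symbol (adjusted p under 0.05), and its offset value lies at 0.05.

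The difference in H2-D1 between the embryo libraries was set against all genes. Of 10420 genes with a mean of at least 5 CPM, 30 (0.288%) were at least 4-fold higher in male C than in male B in log2 (CPM + 0.1), and 2 were at least 4-fold lower. The central 95% of log2 ratios ran from -0.53 to 0.93, and H2-D1 ranked 18. Male B was the lowest of the 4 libraries for each of the 30, and for 29.5% of the 10420 genes. The choice of the 30 set male B below male C, which favours this, but did not set it below male A or female A. For 2 of the 30, Xist and Gm49405, the mean over the embryo pair was itself under 5 CPM. In the P2 mouse pair 2 genes were at least 4-fold higher and 4 at least 4-fold lower in female A than in male A. Among the genes listed for antigen presentation, Pdia3 was the only other gene of the 30. It encodes ERp57, the oxidoreductase of the peptide loading complex, and had 101 CPM in male B against 585, 774 and 699.8 CPM in male C, male A and female A. Male B stood apart and the other 3 libraries were close. The ratio of male C to male B was 5.77 for Pdia3 (95% exact counting interval 5.52 to 6.03). Its partners in the loading complex differed in this ratio: beside the 4.73 of H2-D1, it was 2.47 for Tap2 (0.995 to 6.96), 1.43 for Tap1 (0.803 to 2.60), 1.02 for Tapbp (0.943 to 1.11) and 0.924 for B2m (0.881 to 0.969). The deposited values do not show whether male B or male C is nearer to the level of H2-D1 in embryo pools.

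**Figure D3:**
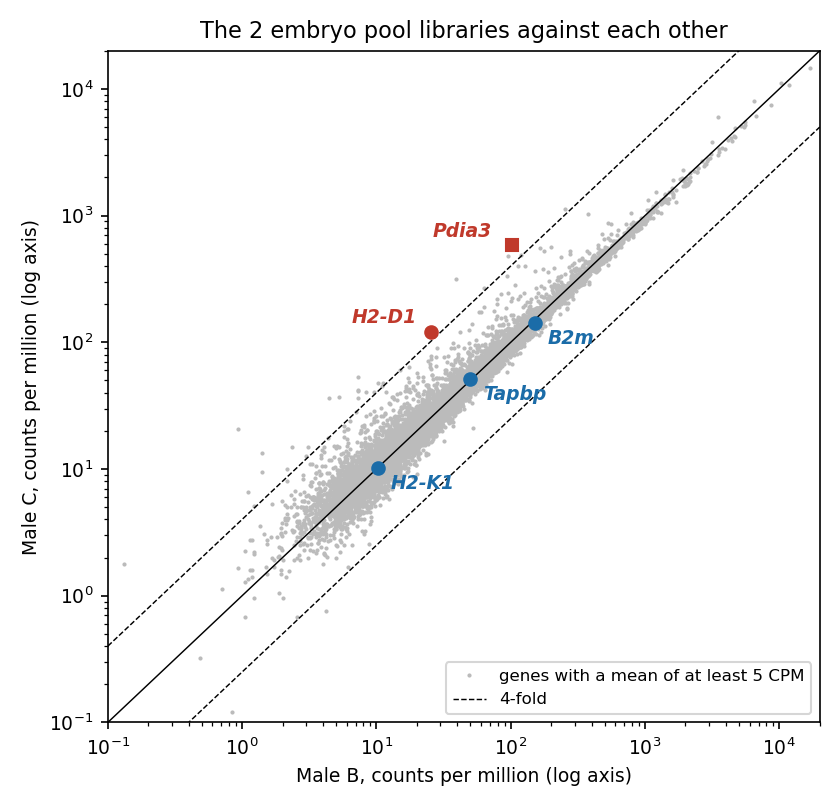
CPM of male C against male B (log axes) for 10420 genes with a mean of at least 5 CPM, with the line of equality and dashed 4-fold lines. H2-D1 and Pdia3 lie above the upper 4-fold line, and B2m, Tapbp and H2-K1 on the line of equality.

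Around these 10 genes, 9 lists of the wider pathway held 107 genes, of which 78 were tested between the pools. Of these, 20 had higher and 24 lower levels in the P2 mouse libraries, with a median log2 fold change of -0.11. Of all genes, 22.3% were called higher and 20.0% lower. Leaving out male A, 8 of 79 listed genes were higher and 16 lower, beside 11.8% and 10.3% of all genes. Without female A 16 of 81 were higher and 15 lower, against 13.6% and 11.3% of all genes. With sex as a term 14 of 78 were higher and 12 lower, against 13.3% and 10.4%. With GC and length offsets 14 of 78 were higher and 16 lower, against 15.5% and 16.0%. Fewer genes were thus called under these settings in the lists and among all genes alike, and the counts by list below are to be read beside these shares. Without male B 19 of 80 were higher and 28 lower, against 21.4% and 20.0%. The lists differed in direction, as the plot of fold changes by list shows.

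**Figure D4:**
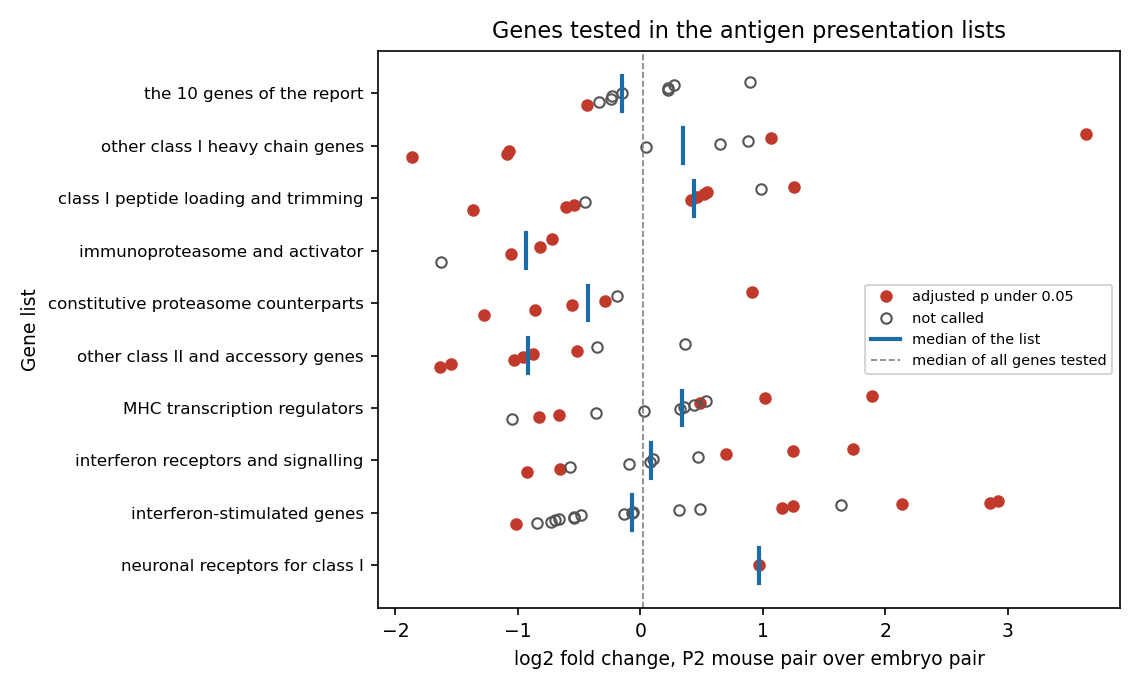
log2 fold change of the P2 mouse pair over the embryo pair for each gene tested in the 10 genes described and the 9 pathway lists. Filled red points were called by edgeR (adjusted p under 0.05), blue bars are list medians and the dashed line is the median of all genes tested. Called genes of the immunoproteasome and class II lists all lie below 0.

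The other class I heavy chain genes split. Of 8 tested out of 20, 2 were higher and 3 lower (median 0.35). H2-T24, a nonclassical chain and the most abundant of the list, fell from 34.1 and 30.9 CPM in the embryo pair to 16.9 and 16.2 CPM in the P2 mouse pair (log2 fold change -1.09, SE 0.145, adjusted p = 0.000918). H2-T22, a ligand of gamma-delta T cells, fell by 1.07, though 53.5% of its words are shared with other genes, mainly H2-T10. H2-M3, which presents formylated peptides, fell by 1.86 (adjusted p = 0.0151). Fcgrt, the heavy chain of the neonatal Fc receptor, which also binds beta-2 microglobulin, rose from 9.53 and 6.91 CPM to 19.4 and 17.9 CPM (1.07, SE 0.213, adjusted p = 0.00553). Mr1, which presents vitamin B metabolites, had 0, 10, 48 and 83 counts in library order and was called higher. Without male A 0 were higher and 2 lower, and 1 and 1 without female A or with sex as a term.

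Of the 10 genes of peptide loading and trimming, 5 were higher and 3 lower (median 0.44). Calnexin (Canx), the chaperone that first holds the heavy chain, was the most abundant at 1139, 1065, 1597 and 1588 CPM in library order, and rose by 0.42 on the log2 scale. The aminopeptidase genes Lnpep (1.26) and Erap1 (0.52), the translocon gene Sec61b (0.55) and the chaperone gene Hspa5 (0.46) also rose. Tapbpl, the gene of the tapasin relative TAPBPR, fell by 1.37 (SE 0.184, adjusted p = 0.000943), calreticulin (Calr) by 0.61 and Sec61a1 by 0.54. Pdia3, described above, stood at 0.99 with an SE of 0.623 and was not called (0.21 without male B, not called, and 2.70 without male C, called). With the GC and length offsets 1 of the 10 was higher and 2 lower and the median turned to -0.07: Canx turned to -0.10 and Erap1 to -0.17, and Lnpep (0.28), Hspa5 (0.26) and Sec61a1 (-0.13) were not called. Without male A 2 were higher and 3 lower, and 4 and 1 without female A or with sex as a term.

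Most of the proteasome genes tested fell in the P2 mouse pair, whether or not they belong to the interferon-inducible form. Of 4 tested immunoproteasome and activator genes 3 were lower (median -0.94): the catalytic subunit gene Psmb10 fell by 1.05, and the activator genes Psme2 by 0.82 and Psme1 by 0.72. Of 6 constitutive genes 4 were lower and 1 higher (median -0.42). The subunits that the inducible ones replace, Psmb5 (-1.27), Psmb6 (-0.86) and Psmb7 (-0.56), fell, as did Psma3 (-0.29), Psme3 rose by 0.91, and Psma1 stood at -0.19 and was not called. Psmb10 had 65.6 and 60.7 CPM in the embryo pair and 34.3 and 31.6 CPM in the P2 mouse pair. Psmb8 and Psmb9, the other inducible catalytic subunits, had at most 21 counts in any library. Per kilobase, Psmb7 exceeded Psmb10 by 5.85, 6.12, 7.97 and 8.93 times in library order, and Psmb6 exceeded Psmb9 by at least 1603 times. With the GC and length offsets 0 of the 4 inducible genes were called, and 1 of the 6 constitutive genes was higher and 5 lower. The call of Psme3 was lost with sex as a term (0.74, adjusted p = 0.0574 by edgeR).

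Of the other class II and accessory genes 8 of 14 were tested, and 6 were lower and 0 higher (median -0.92). The class II beta chain gene H2-Eb1 had 130, 128, 40 and 43 counts in library order (log2 fold change -1.64, SE 0.324, adjusted p = 0.00535). The peptide exchange genes H2-DMb2 (-1.54) and H2-DMa (-0.96) fell too. H2-DMb2 and H2-DMb1 share 21.2% of the words of H2-DMb2, and 8.43% of the words of H2-DMa also occur in Brd2. The lysosomal protease genes Lgmn (-1.03) and Ctsl (-0.51) also fell. Unlike the class II chains they are made by many cell types, and stood at 376.8 and 1059.8 CPM in male C. The costimulatory genes Cd80, Cd86 and Cd40 had at most 9 counts in any library. Without male A, without female A and with the GC and length offsets 3 of the 8 were lower, and with sex as a term 2.

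Upstream of these genes, regulators and interferon signalling changed in both directions. Of 12 regulators tested 3 were higher and 2 lower (median 0.34), without male A 2 and 0, and 3 and 1 with sex as a term. Irf1, which activates class I promoters, rose from 8.69 and 11.5 CPM to 45.6 and 35.6 CPM (1.89, SE 0.204, adjusted p = 0.000402). Creb1 (1.02) and the NF-Y subunit gene Nfyb (0.49) also rose, and the RFX subunit gene Rfxank (-0.83) and the NF-kappa B gene Rela (-0.67) fell. With the GC and length offsets Creb1 (0.09), Nfyb (0.05), Rfxank (-0.43) and Rela (-0.21) were not called, while Irf1 was higher at 2.33. Nlrc5 and Ciita, the transactivators of class I and class II genes, had at most 27 and 4 counts in any library. Of 10 interferon receptor and signalling genes 3 were higher (Jak2 1.74, Ifnar2 1.25 and Jak1 0.70) and 2 lower (Ifngr2 -0.93 and Stat2 -0.66), with a median of 0.09. Without male A 1 was higher and 1 lower, and likewise with sex as a term. Among the interferons themselves, Ifnb1 had no count and Ifng 1 count in all.

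Of 19 interferon-stimulated genes tested 5 were higher and 1 lower, with a median of -0.07 that turned to 0.21 with sex as a term. The immunity-related GTPase gene Iigp1 had 0.309 and 0.361 CPM in the embryo pair and 2.53 and 3.03 CPM in the P2 mouse pair (2.92, SE 0.463, adjusted p = 0.00197). Ifi44 (2.86), the chemokine gene Cxcl10 (2.14) and the membrane protein gene Ifitm3 (1.25) were also higher, and Oasl2 fell by 1.02. Ifit2, with Ifitm3 the most abundant per kilobase, stood at 0.49 and was not called. Without male A 2 were higher and 1 lower. The call of Ifi44 was lost when any 1 library was left out and with the GC and length offsets. The only neuronal class I receptor gene tested, Insr, the insulin receptor gene, which is known to associate with class I chains, was higher at 0.97 (adjusted p = 0.0106 by edgeR). That call was lost without male A (adjusted p = 0.0891), without female A (0.0509), with sex as a term (0.0675) and with the GC and length offsets (log2 fold change 0.50, adjusted p = 0.0973). Pirb had at most 6 counts in any library.

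Markers of other cells moved with the pools. Schwann cell markers summed to 3150 and 3209 CPM in the embryo pair against 8460 and 5349 CPM in the P2 mouse pair. Fibroblast markers summed to 345 and 356 CPM against 1545 and 1413 CPM, and satellite glia markers to 1096 and 1524 CPM against 2746 and 2333 CPM. These last 2 sums rest on few genes. Of 9 fibroblast markers tested 5 were called higher and 1 lower, and of 8 satellite glia markers 4 higher and 2 lower. The median CPM over the markers was 24.5 and 22.01 against 18.5 and 21.9 for fibroblasts, and 102.5 and 152.4 against 131.4 and 151.6 for satellite glia. Sensory neuron markers, all 10 of them detected in every library, ran the other way, at 13139 and 12279 CPM against 7351 and 7759 CPM, so the labelled cell type was present in each library. The part of these shifts in the differences between the pools was not tested, and in bulk RNA fewer cells of a type and less RNA per cell cannot be told apart. For the class II genes the relevant markers were scarce: the 13 macrophage and microglia markers summed to 11.0, 9.28, 20.7 and 11.9 CPM in library order. The leukocyte, dendritic and B cell list summed to between 29.6 and 39.5 CPM, of which Zbtb46 alone made 24.5 to 36.7 CPM. The dendritic cell integrin gene Itgax had 1 count in all, and the pan-leukocyte gene Ptprc 4, 5, 21 and 8 counts. Male A had the highest macrophage sum, and also the highest sum of the 3 class II genes, 1.31 RPKM from 36 counts, against 0.631 to 1.08 RPKM in the others. The part of macrophage RNA in this was not tested. Endothelial and mural markers summed to between 96.2 and 110 CPM, and erythroid markers to between 5.26 and 56.8 CPM. The flat endothelial and mural sum hides changes of single markers. Of 9 tested, 4 were called higher and 0 lower, beside 22.3% and 20.0% of all genes. With sex as a term 0 of the 9 were called. Their median CPM was 1.06 and 0.522 in the embryo pair against 1.78 and 3.92 in the P2 mouse pair.

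**Figure D5:**
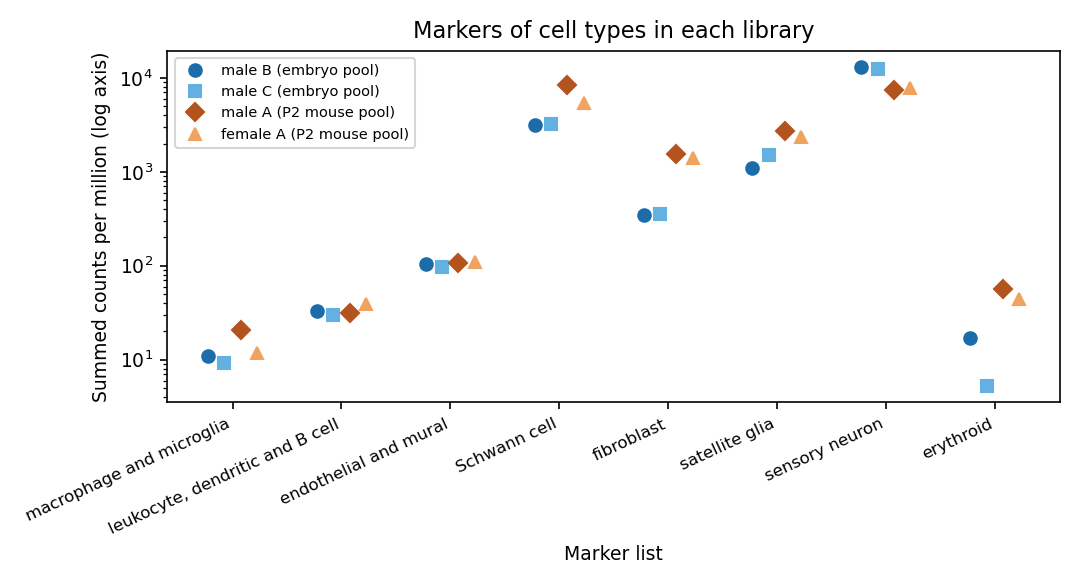
Summed CPM (log axis) of the marker lists of 8 cell types in each library. Schwann cell, fibroblast, satellite glia and erythroid sums are higher in the P2 mouse pair and the sensory neuron sum is lower. Endothelial and mural sums lie between 96.2 and 110 CPM, although the median level of these markers was higher in the P2 mouse pair.

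The series title also sets males beside females. Over 16708 genes, the edgeR test called 0 genes between female A and the 3 males (0% of genes, with 129 at an unadjusted p under 0.05), limma-voom called 0 and DESeq2 5. None of the 10 antigen presentation genes was called by any of them. The edgeR test did not call Xist either, at 233 CPM in female A against at most 1.77 CPM in a male. The lack of a call by edgeR thus says little about the 10 genes. The log2 fold change was -0.50 for H2-K1 (SE 0.394, adjusted p = 0.951), -0.30 for H2-D1 (SE 0.807), 0.00 for B2m (SE 0.326) and -0.28 for Tapbp (SE 0.381). H2-T23 stood at 0.52 (SE 0.811), Cd74 at -1.49 (SE 1.28) and H2-Aa, with a count of 0 in female A, at -6.00 (SE 2.34). Female A had the lowest level of H2-K1 and H2-Aa among the 4 libraries and the highest of Tap1. A single female was tested and the males hold both pool labels, so these errors are wide and do not show that the sexes were alike. Female A also pooled 40 ganglia against 20 in each male, so sex and pool size cannot be told apart.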

How the data were processed

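RNA sequencing of 4 libraries was analysed. The deposited counts are reads per Ensembl gene. The submitters' processing notes name featureCounts 1.4.5 (Subread) and GRCm38.p2. The authors' CPM equal the counts scaled to the library's total of gene counts, and the authors' RPKM equal that CPM per kilobase of the length column. Both were recomputed from the counts, and the names are per the file headers. The aligner, annotation release, strand setting and handling of multiply matching reads: not given in the sources used here. Symbols came from GENCODE M21 for 40254 of 41388 genes (97.3%), and the tables' coordinates are printed.

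The pools were compared, and female A with the males, by the edgeR 4.0.16 quasi-likelihood test on the counts (R 4.3.3, TMM factors 0.961 to 1.05, filterByExpr with minimum count 10, Benjamini-Hochberg over all genes tested, threshold 0.05), tested on simulated data. The SE is the fold change over the root of F. Alternatives were other size factors, filters, DESeq2 1.42.0, limma-voom (limma 3.58.1), sex or pool as a term, each library left out, and GC and length offsets (mgcv 1.9.3). Levels between genes were compared per length. The 10 genes, the lists and the rule for names were chosen with earlier results of these data known. The rule took all 10 genes, and from each list up to 4 genes called per direction and the 2 of highest RPKM. Other genes named for low counts were chosen after their values were seen. A floor is 3 counts.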

Additional observations from a re-analysis of the deposited data

How the results depend on the processing

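Between the pools, 3472 genes were called higher and 3112 lower. With sex as a term the counts were 2064 and 1615. Leaving out each library in turn gave 1935 to 3630 higher and 1681 to 3311 lower, the lowest without male A (1935 and 1681), followed by 2202 and 1834 without female A. Of the values of the 10 genes under an alternative, 74 kept direction and side of the threshold, 15 turned, 2 became called without turning and 3 lost the call without turning. With the GC and length offsets Tapbp turned to 0.053, H2-K1 to 0.29, H2-D1 to 0.23, B2m to -0.086, H2-Ab1 to 0.51 and Cd74 to 0.43. With sex as a term H2-K1 turned to 0.0010 and Cd74 to 0.49, and with limma-voom H2-D1 to 0.029. Leaving out each library in turn gave H2-K1 -0.49 to 0.0056 (turned without female A), Tap2 -0.28 (without male B) to 0.98, H2-Ab1 -0.42 to 0.10 (turned without male B), and Cd74 -1.31 to 1.19 (turned to 1.19 without male C and 0.49 without female A). H2-D1 ranged from -1.07 without male B to 1.14 without male C, and with no filter on low counts it stood at -0.35 (adjusted p = 0.0427 by edgeR, where 25075 genes entered the fit). The fit with sex as a term and the fit without female A share a contrast and were counted separately. The cause of these changes was not tested. With CPM in place of RPKM 4 of the 10 genes changed their place in the order of levels.

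Between female A and the males, where 0 genes were called higher and 0 lower, no filter gave 1 and 1, DESeq2 1 and 4, and the pool description as a term 0 and 4. Leaving out each male gave 1 to 1935 higher and 4 to 1681 lower, the highest without male A, where the sexes differ in pool label too. None of the values of the 10 genes was called, and 8 turned: B2m, at -0.00053, to 0.012 at a mean of at least 5 CPM, 0.011 with limma-voom and 0.13 without male A, H2-D1 to 0.38 without male C, Tap2 to -0.18 without male B, and, once the pool label entered the fit, H2-T23 to -0.031, Tap2 to -0.046 and Tapbp to 0.045. Leaving out each male gave H2-D1 -0.69 to 0.38, B2m -0.090 to 0.13 and Tap2 -0.18 to 0.39. No paired analysis was possible because the labels name the libraries by letters that pair no library across the pools, and the replicate numbers were given in accession order only. Counts of 44 or fewer per library limit H2-T23, Tap1, Tap2, H2-Aa, H2-Ab1 and Cd74.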

Other observations

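The pattern of H2-D1, lowest in male B and highest in male C, recurred in genes with no role in antigen presentation. These genes were chosen after their values were seen. The 5 closest to H2-D1 in centred log2 (CPM + 0.1) were the synaptic vesicle GTPase gene Rab3a, the gene of the membrane glycoprotein basigin (Bsg), the adaptor gene Tradd, the SUMO ligase gene Pias4 and the gene of sepiapterin reductase (Spr), with root mean square differences of 0.0872, 0.0987, 0.112, 0.144 and 0.189 against a median of 0.854. In the order male B, male C, male A, female A, Rab3a had 95.6, 478.3, 248.8 and 267.6 CPM and Bsg 120.2, 491.3, 292 and 298.2 CPM.

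Other genes of the 30 at least 4-fold higher in male C than in male B were abundant in the remaining 3 libraries. The profilin gene Pfn1 had 39.3 CPM in male B and 316, 255 and 245 CPM in male C, male A and female A. The ferritin heavy chain gene Fth1 had 256 CPM against 1137, 930 and 875 CPM, and Psmd5, the gene of a proteasome assembly chaperone, 23.8 CPM against 128, 127 and 121 CPM. The 30 genes lie on 14 chromosomes.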
